A study of Mus musculus with 12 samples.

Results

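Polysome mRNA, the mRNA carrying more than 3 ribosomes, was compared between mouse neural progenitor cells treated with the mTOR inhibitor Torin1 and cells treated with its solvent DMSO. The libraries were chosen by their labels alone, as the 3 polysome libraries of each treatment, 6 of the 12 libraries of the series. Every gene of the table entered the comparison, and 20240 of 53351 had values high enough to be tested. The cells were wild type and primary, taken from the cerebral cortex at embryonic day E13.5, dissociated and grown overnight with the growth factors bFGF and EGF. They then received 250 nM Torin1 or DMSO for 2 h, and all cultures received cycloheximide at 100 ug/ml for 5 min, which holds ribosomes on mRNA. A 10% portion of every lysate was set aside as total mRNA, and polysome fractions were collected from a sucrose gradient of the remainder. The labels call the libraries biological replicates, without saying how many embryos each culture came from. The p-values compare 3 with 3 cultures, but their spread is estimated over all 12 libraries, those of total mRNA included.

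mTOR complex 1 (mTORC1) is a kinase complex that couples growth factors and amino acids to protein synthesis. It phosphorylates the 4E-BP proteins, which otherwise block the cap-binding factor eIF4E, the S6 kinases, and LARP1, which binds the 5′ end of TOP mRNAs. These mRNAs begin with a C followed by a run of pyrimidines (the terminal oligopyrimidine, TOP) and encode ribosomal proteins and many translation factors. In cortical progenitors the pathway is known to affect growth, division and the step to neurogenesis. The comparison asks which mRNAs hold a larger or smaller share of the polysome pool after 2 h of inhibition.

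The deposited values are abundances relative to each library, so no depth in reads can be given and a change in the overall amount of polysome mRNA was not measured. Levels are given as ppm of the library after rescaling. They are compared between libraries and not between genes, because division by gene length is not stated. Column totals of the 6 polysome libraries ran from 14889221 to 19201406. Over 9026 expressed genes (mean log2 ppm of at least 3) Pearson's r within a group was 0.992 to 0.994 for DMSO and 0.977 to 0.988 for Torin1. This r runs across genes and is a description of the libraries. Markers of the labelled cell type were present in the polysomes of DMSO cells, with the progenitor genes Sox2 at 88.9, 97.4 and 89.0 ppm, Pax6 at 44.8, 45.5 and 47.0 ppm and Vim at 1062, 1129 and 1029 ppm. Markers of intermediate progenitors (Eomes at 25.9, 26.1 and 25 ppm) and of neurons (Tubb3 at 1304, 1444 and 1419 ppm) were present too, so the cultures held more than apical progenitors. In bulk libraries fewer cells of a type and less RNA per cell cannot be told apart.

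Torin1 shifted the polysome pool in both directions, and most falls among the most abundant mRNAs were of ribosomal protein genes. With limma and Benjamini-Hochberg adjustment over all genes 2028 genes passed an adjusted p of 0.05. Of these, 925 rose (4.57% of genes tested) and 1103 fell (5.45%). Among expressed genes 582 rose (6.45%) and 942 fell (10.4%). Counts in the gene lists below are to be read against these shares. All lists and their members were chosen with earlier results of these data known, so their counts are descriptions of the lists only. A fold on the log2 scale of at least 1 was reached by 197 that rose and 189 that fell. Of 169 genes with a mean of at least 10 log2 ppm, 73 fell and 0 rose. Without the ribosomal protein genes 11 of 106 fell and 0 rose, a share of falls near the 10.4% of all expressed genes. Of 4402 genes between 3 and 5 log2 ppm, 347 rose and 391 fell. The median log2 fold of all genes tested was 0.00.

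The counts depend on how libraries are put on 1 scale. With scaling to the column total alone, 2911 genes rose and 329 fell, so 89.8% of the calls were rises instead of 45.6%, and the median log2 fold of all genes moved to 0.23. Folds below are therefore relative to the bulk of genes. The fit shares 1 estimate of spread over all 12 libraries. A fit of the 6 polysome libraries alone called 404 genes, 184 rises and 220 falls. Without DMSO replicate 1 the count was 1263 and without DMSO replicate 3 it was 1185. Rule-chosen genes are named below where their call held with each of the 6 polysome libraries left out in turn, as it did for 450 rises and 524 falls of all genes. The others are counted.

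**Figure D1:**
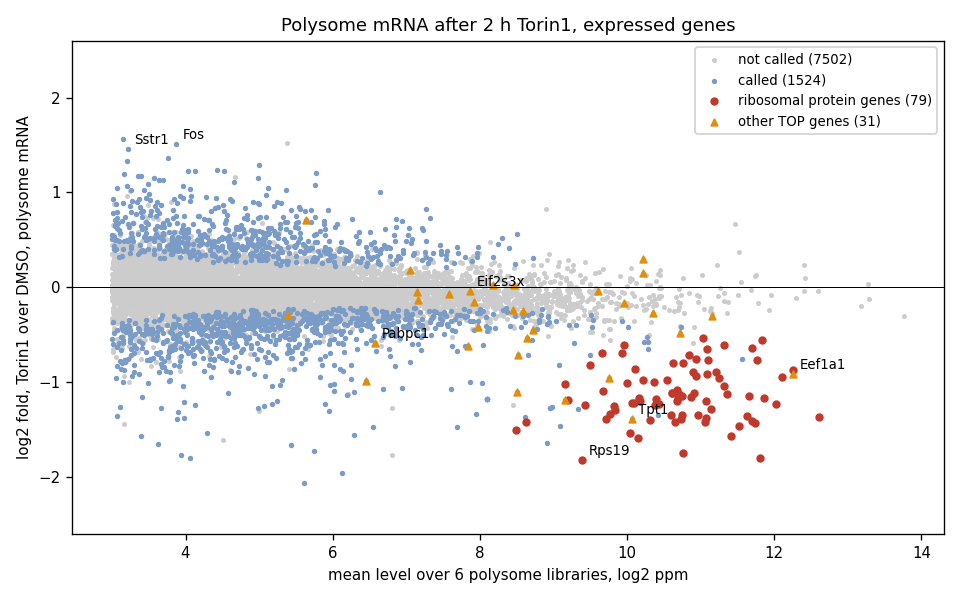
Log2 fold of Torin1 over DMSO (vertical axis) against the mean level in log2 ppm over the 6 polysome libraries (horizontal axis) for 9026 expressed genes, with 1 gene (Gm8325, at 8.64) beyond the axis. Blue points are genes called by limma, and orange triangles the other TOP genes. The 79 ribosomal protein genes (red) lie at high levels and low folds, while rises such as Fos and Sstr1 lie at low levels.

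Ribosomal protein genes encode the proteins of the large (Rpl) and small (Rps) ribosomal subunit and are the founding members of the TOP class. To show what a TOP start looks like, 30 bases are given around gene starts in RefSeq (GRCm38.p6), 10 before and 20 from the annotated first base. Capitals mark a run of at least 5 pyrimidines that opens with C within 5 bases of that start, and a line with no capitals holds no such run there. The first 4 are the ribosomal protein genes with the largest falls that have an entry, and the next 4 are ribosomal protein genes with a run exactly at the start, chosen after their values were seen.

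Rps19, chr7:24884582-24884611 (+): aatctcgcgagactcgacgcccgacttgtg
Rps27, chr3:90213629-90213658 (-): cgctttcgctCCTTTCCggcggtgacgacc
Rps12, chr10:23787190-23787219 (-): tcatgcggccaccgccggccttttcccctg
Rps7, chr12:28635934-28635963 (-): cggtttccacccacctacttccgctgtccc
Rps15a, chr7:118116128-118116157 (-): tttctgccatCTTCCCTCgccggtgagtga
Rps21, chr2:180257369-180257398 (+): aggacccgccCTCCTgcccaatagtgctgc
Rps18, chr17:33955646-33955675 (-): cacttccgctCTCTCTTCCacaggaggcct
Rplp2, chr7:141447641-141447670 (+): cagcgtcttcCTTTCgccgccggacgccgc

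The ribosomal protein mRNAs fell in the polysomes almost without exception. Of 47 large subunit genes 46 fell, with a median log2 fold of -1.11, and of 32 small subunit genes 32 fell, with a median of -1.21. In 78 of the 79 every Torin1 library lay below every DMSO library, which was so for 12.3% of all genes tested and 19.4% of expressed genes. Together the 79 genes made up 19.7%, 17.5% and 20.0% of the 3 DMSO columns and 10.3%, 9.61% and 11.4% of the 3 Torin1 columns. With scaling to the column total alone 78 still fell, with a median of -0.92. In the fit of the 6 polysome libraries alone 44 fell. Reads shared with near-identical retrocopies make the level of a single ribosomal protein gene uncertain, since the handling of such reads was not given in the sources used here.

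Rps19, which encodes a small subunit protein (chr7:24884592-24889811, GRCm38), had the largest fall of an expressed gene under the naming rule. Its level was 1360, 1040 and 1411 ppm in DMSO and 357, 294 and 438 ppm in Torin1, and the groups were far apart. Its log2 fold was -1.81 ± 0.14 (limma, adjusted p = 1.5e-05). The SE, here and in all folds below, comes from the fit of 12 libraries, with n = 3 and 3 compared. Rps27 stood at 7457, 5185 and 7686 ppm in DMSO and at 1920, 1532 and 2384 ppm in Torin1, with a fold of -1.80 ± 0.17 (adjusted p = 6.6e-05). Rps12 went from 3342, 2759 and 3509 ppm to 908, 854 and 1098 ppm, a fold of -1.75 ± 0.11 (adjusted p = 9.8e-06). DMSO replicate 2 was the lowest of its group for each of these 3 genes.

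In the large subunit Rpl32 led, at 5230, 3732 and 5304 ppm in DMSO and 1577, 1361 and 1857 ppm in Torin1, a log2 fold of -1.57 ± 0.14. Rpl17 had -1.53 ± 0.13 and Rpl23a -1.46 ± 0.18. Of the small subunit, Rps7 (-1.59 ± 0.16), Rps20 (-1.50 ± 0.13) and Rps15a (-1.43 ± 0.15) were also among the 12 largest falls. The remaining 3 of the 12 were paralogs of ribosomal protein genes, Rps27rt at -1.72 ± 0.19, Rpl37rt at -1.47 ± 0.11 and Rpl22l1 at -1.47 ± 0.18. Each of these falls had an adjusted p (limma) of 0.00046 or less. Rps6, the ribosomal protein that S6 kinase phosphorylates, stood at 2622, 2004 and 2601 ppm in DMSO and at most 1320 ppm in Torin1, a fold of -1.08 ± 0.12 (adjusted p = 0.00019).

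The falls differed in size within the family. At the small end Rpl7a had -0.54 ± 0.08 and Rpl4 -0.60 ± 0.10, both called, against -1.81 ± 0.14 for Rps19. Rpl41, which encodes the smallest ribosomal protein, was the 1 member that did not pass. It stood at 5055, 3302 and 5172 ppm in DMSO and 3242, 2371 and 3561 ppm in Torin1, with overlapping groups and a log2 fold of -0.55 ± 0.18 (adjusted p = 0.079, limma). In total mRNA the median log2 fold was 0.06 for the large and 0.08 for the small subunit genes, and 0 of the 79 genes were called there, against 3.04% of all genes tested that rose and 4.35% that fell in total mRNA. The difference between the polysome and the total fold, tested as an interaction, passed for 67 of the 79, against 0.726% of all genes tested. With culture as a block, since total and polysome mRNA came from the same lysates, it passed for 48.

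**Figure D2:**
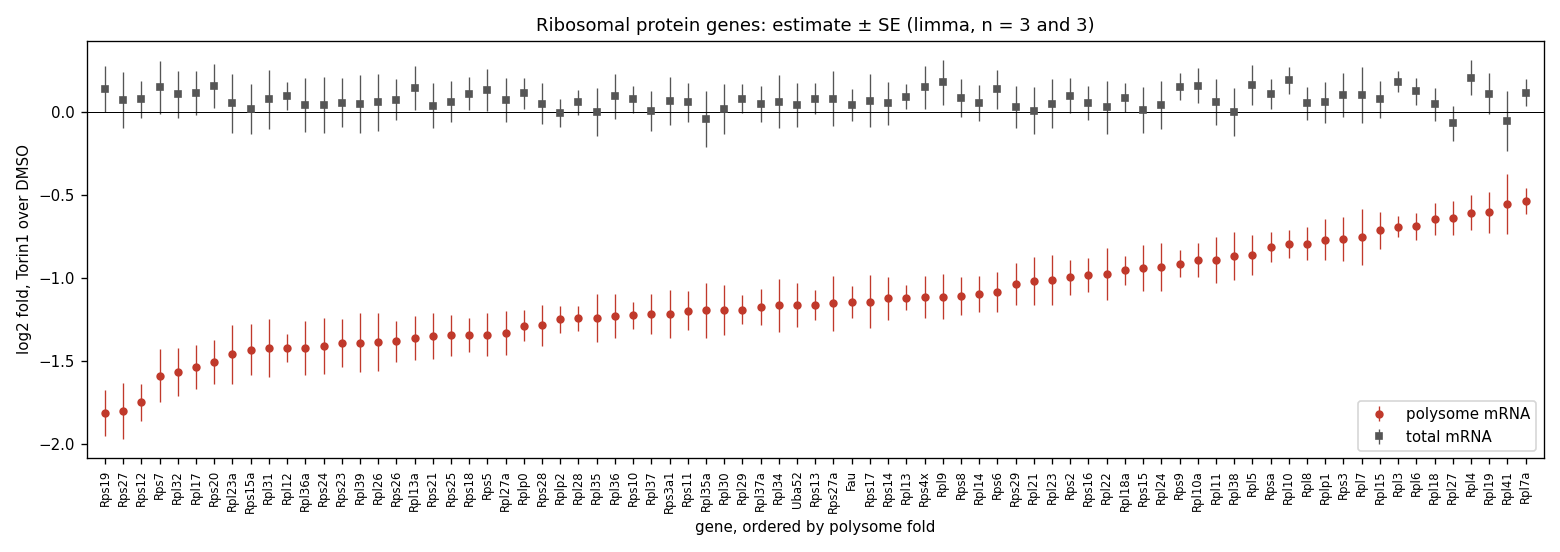
Log2 fold of Torin1 over DMSO (vertical axis, estimate ± SE) for the 79 ribosomal protein genes ordered by the fold in polysome mRNA (red circles), with the fold in total mRNA (grey squares). Polysome folds run from -1.81 for Rps19 to -0.54 for Rpl7a, while total folds lie near 0.

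Falls were also compared between genes with and without a pyrimidine run at the annotated start. Of 58 ribosomal protein genes with a RefSeq start, 14 (24.1%) had the run exactly there, against 3.01% of all RefSeq genes with a start sequence. All 14 fell, with a median log2 fold of -1.23, and 43 of the 44 without it fell, with a median of -1.12. With a run allowed to begin within 5 bases on either side, 28 of the 58 had one, against 21.2% of all RefSeq genes. Among all expressed genes 41 of 226 with the exact run fell (18.1%) and 674 of 6750 without it fell (9.99%). Among expressed genes other than ribosomal proteins, 27 of 212 with the exact run fell (12.7%) and 631 of 6706 without it fell (9.41%). The medians of the groups without ribosomal proteins were -0.06 and -0.04. These are descriptions, since annotated starts can differ from those used in the cells and no match says only that the letters are not in that window.

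Beyond the ribosomal proteins, the list of other TOP mRNAs holds 31 genes, many of them translation factors, with RNA-binding proteins, chaperones and others. Of these 12 fell and 1 rose (8 and 6 under column total scaling), and without Torin1 replicate 3, 19 fell. The median log2 fold was -0.27, against 0.16 in total mRNA, where 5 of the 31 rose and 0 fell (3.04% and 4.35% of all genes tested did). Starts are shown for the 3 largest falls and for the 3 members of all TOP lists with the smallest change, under the rule above.

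Tpt1, chr14:75845246-75845275 (+): cgctgacgacagttccgggggagccgcgga
Ybx1, chr4:119294494-119294523 (-): ccgcccgtcccgccattctcgctagttcga
Eef1b2, chr1:63176821-63176850 (+): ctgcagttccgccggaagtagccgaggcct
Cct2, chr10:117063833-117063862 (-): ccagcccgccacgcaggaggcggaaacccg
Eef2, chr10:81176621-81176650 (+): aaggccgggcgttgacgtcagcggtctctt
Eif2s3x, chrX:94212632-94212661 (-): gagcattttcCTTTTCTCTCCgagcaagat

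Tpt1, which encodes the translationally controlled tumour protein and is a classic TOP mRNA, stood at 1802, 1562 and 1844 ppm in DMSO and 614, 606 and 780 ppm in Torin1. Its log2 fold was -1.39 ± 0.10 (adjusted p = 1.4e-05, limma). Ybx1, which encodes a cold shock domain protein that binds mRNA, went from 890, 870 and 827 ppm to 372, 390 and 375 ppm, a fold of -1.19 ± 0.16 (adjusted p = 0.00077). Both showed groups that did not overlap. Rack1, a scaffold protein of the small subunit, went from 1176, 1162 and 1264 ppm to 639, 573 and 654 ppm, with -0.95 ± 0.08 (adjusted p = 3.1e-05). Pabpc1, the cytoplasmic poly(A)-binding protein, stood at 115, 119 and 117 ppm in DMSO and 69.9, 92.7 and 73.8 ppm in Torin1, a fold of -0.58 ± 0.09 (adjusted p = 0.0016). Its call was lost with scaling to the column total alone (adjusted p = 0.081). Cct2, a chaperonin subunit, had 0.02 and Eif2s3x, a subunit of the factor that brings the initiator tRNA, -0.04, the first without a run at its start and the second with the longest run shown.

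Elongation factors carry tRNAs to the ribosome and move it along the mRNA. Of 20 elongation and termination factors 5 fell and 0 rose. Eef1a1, the factor that delivers aminoacyl-tRNA, stood at 6684, 6711 and 6667 ppm in DMSO and at 3226, 3394 and 4099 ppm in Torin1, with a log2 fold of -0.91 ± 0.11 (adjusted p = 0.00036, limma). Eef1b2, its exchange factor, had -1.11 ± 0.10 and Eef1g, another subunit of that complex, -0.71 ± 0.07. Eef2, the translocase and itself a TOP mRNA, was not called in the polysomes, at 776, 804 and 780 ppm in DMSO and 878, 750 and 692 ppm in Torin1, a fold of -0.03 ± 0.09 (adjusted p = 0.87). In total mRNA Eef2 rose, with 0.45 (adjusted p = 0.0096). Its polysome fold thus lay below its total fold, but this difference was not called. Pelo, a ribosome rescue factor, had -0.77 ± 0.12 in polysome and -0.88 in total mRNA.

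The 13 subunits of eIF3, the scaffold of initiation, moved in opposite directions. Of these 4 fell and 2 rose (2 and 3 under column total scaling). Eif3f went from 119, 121 and 131 ppm to 71.5, 66.6 and 51.4 ppm, a log2 fold of -0.98 ± 0.11 (adjusted p = 0.00026, limma). Eif3a, the largest subunit, went the other way, from 41.2, 37.7 and 37.4 ppm to 55.2, 68.6 and 67.4 ppm, with 0.71 ± 0.08 (adjusted p = 0.00021). Neither gene showed overlap between the groups. Eif3k had -0.53 ± 0.09 and Eif3h -0.45 ± 0.07, the latter not called with scaling to the column total alone (adjusted p = 0.057). Of 30 other initiation factors 3 fell and 0 rose, none of these calls held with every library left out, and with that scaling 0 fell and 3 rose. Without Torin1 replicate 3, 9 fell.

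The direct effectors of mTORC1 on translation changed little. Of 15 genes 1 rose and 1 fell. Pdcd4, which encodes an inhibitor of the helicase eIF4A, rose from 27.8, 30.7 and 25.4 ppm to 39.3, 42.1 and 43.3 ppm, a log2 fold of 0.57 ± 0.07 (adjusted p = 0.00053, limma). Larp1, the TOP-binding repressor, had -0.39 ± 0.10 (adjusted p = 0.026). This call was lost without DMSO replicate 1 (adjusted p = 0.074), 2 (0.061) or 3 (0.078) and under column total scaling (0.54). Eif4ebp1 and Eif4ebp2, the 4E-BP genes, had -0.44 ± 0.15 (adjusted p = 0.086) and -0.29 ± 0.09 (adjusted p = 0.060), and Rps6kb1, an S6 kinase gene, 0.04 ± 0.12 (adjusted p = 0.88).

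**Figure D3:**
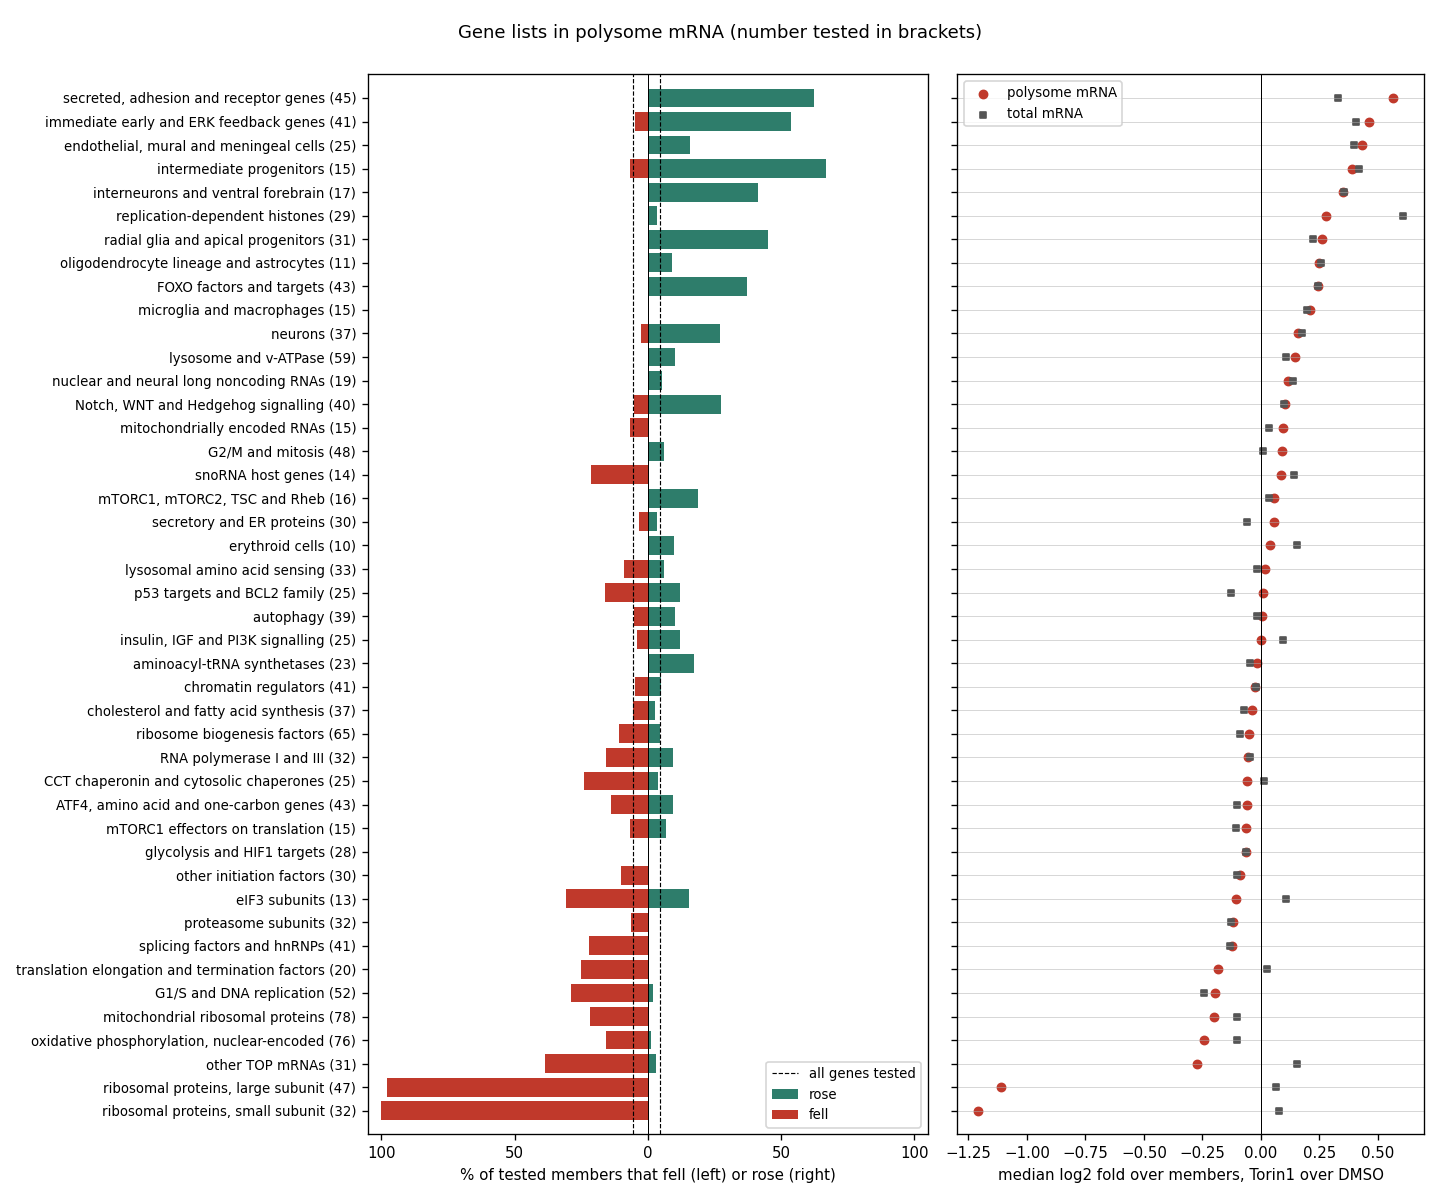
For each of 44 gene lists, ordered by median fold, the share of tested members that fell or rose in polysome mRNA (left, with dashed lines at 5.45% and 4.57% for all genes tested) and the median log2 fold in polysome and in total mRNA (right). The 2 ribosomal protein lists and the other TOP list separate polysome from total mRNA, and most other lists have both medians close together. Among expressed genes alone 10.4% fell and 6.45% rose.

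Ribosomes are assembled in the nucleolus by a large set of factors. Of 65 ribosome biogenesis factors 7 fell (10.4% of expressed genes did) and 3 rose (6.45% did), with a median log2 fold of -0.05. With scaling to the column total alone 0 fell and 14 rose. The falls numbered 2 without DMSO replicate 3, 4 without Torin1 replicate 2 and 20 without Torin1 replicate 3, and 2 of the falls and 1 of the rises held with every library left out. The rises numbered 1 without DMSO replicate 1, DMSO replicate 3 or Torin1 replicate 2 and 6 without Torin1 replicate 3. Bysl, a factor of small subunit assembly, went from 27.7, 28.2 and 28.4 ppm to 23.2, 19 and 17.4 ppm, with -0.51 ± 0.10 (limma, adjusted p = 0.0062) and an adjusted p of 0.19 with that scaling. Of 32 genes of RNA polymerases I and III, 5 fell and 3 rose, and none of these calls held with every library left out. Of 14 snoRNA host genes, noncoding or coding genes whose introns yield small nucleolar RNAs, 3 fell. Snhg8 was among them at 118, 84.4 and 104 ppm in DMSO and 54.3, 46.2 and 75.0 ppm in Torin1 (-0.82 ± 0.17, adjusted p = 0.0094). Of 23 aminoacyl-tRNA synthetases, which load tRNAs, 4 rose and 0 fell, and Eprs had 0.73 ± 0.10 (adjusted p = 0.00077). The other 3 calls were each lost when a library was left out.

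Genes of the mTOR complexes and of the TSC and Rheb switch were mostly within their spread. Of 16, 3 rose and 0 fell. Deptor, which encodes an inhibitory subunit of both mTOR complexes (chromosome 15 from 55112317 to 55259273), went from 2.96, 3.92 and 2.67 ppm to 6.40, 6.91 and 7.44 ppm. Its log2 fold was 1.12 ± 0.15 (adjusted p = 0.00059, limma). Rhebl1, a relative of the mTORC1 activator Rheb, rose with 0.58 ± 0.11 (adjusted p = 0.0071). The kinase gene Mtor had 0.11 ± 0.11, Rptor -0.04 ± 0.13 and Rictor 0.32 ± 0.15, with adjusted p from 0.23 to 0.90.

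Of 33 genes of amino acid sensing at the lysosome 3 fell and 2 rose. Sesn2, a leucine sensor that restrains mTORC1 (chromosome 4 from 132492804 to 132510456), went from 12.4, 15.0 and 13.1 ppm to 5.54, 6.07 and 4.27 ppm. Its log2 fold was -1.35 ± 0.13 (adjusted p = 8.4e-05, limma), and -1.21 in total mRNA. Tfeb, a transcription factor of lysosomal genes, was at 1.36, 1.36 and 1.45 ppm in DMSO and 0.571, 0.709 and 0.410 ppm in Torin1. Its fold of -1.25 ± 0.36 had an adjusted p of 0.048, and leaving out any 1 of DMSO replicates 1, 2 and 3 or Torin1 replicates 1, 2 and 3 moved that p to between 0.059 and 0.13. Of 25 insulin and PI3K pathway genes 3 rose and 1 fell, and 5 fell without Torin1 replicate 1. The insulin receptor substrate genes Irs2 (9.09, 9.45 and 8.27 ppm to 18.5, 19.8 and 12.7 ppm, 0.90 ± 0.14, adjusted p = 0.0015) and Irs1 (0.75 ± 0.12, adjusted p = 0.0027) were among the rises. Pik3r3, a regulatory subunit of PI3K, had -0.72 ± 0.09 (adjusted p = 0.00056).

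FOXO transcription factors are held outside the nucleus by AKT and drive feedback genes when insulin signalling drops. Of 43 FOXO genes and targets 16 rose and 0 fell, with a median log2 fold of 0.25, and the median in total mRNA was also 0.25. Fst, which encodes the activin-binding protein follistatin, went from 22.5, 21.5 and 17.4 ppm to 49.2, 50.3 and 50.2 ppm, with 1.29 ± 0.09 (limma, adjusted p = 9.8e-06). The Torin1 libraries lay close together, far above the DMSO libraries. Fst was already known from earlier results of these libraries when the list was drawn up. Klf4, a zinc finger factor gene, went from 1.47, 1.33 and 1.01 ppm to 4.07, 3.65 and 3.51 ppm, with 1.53 ± 0.24 (adjusted p = 0.0018). Egfr, the EGF receptor gene, had 1.27 ± 0.27 from levels of 0.785, 1.54 and 0.957 ppm (adjusted p = 0.010). In total mRNA its fold was 0.71 (adjusted p = 0.14), and the difference between the 2 folds was not called (0.57, adjusted p = 1.00).

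Immediate early genes respond to growth signals within minutes, and the ERK feedback genes dampen that response. Of 41 such genes 22 rose and 2 fell in the polysomes, with a median log2 fold of 0.46. Fos, an AP-1 subunit gene on chromosome 12 from 85473890 to 85477274, had the largest rise of an expressed gene under the naming rule. It stood at 8.23, 9.32 and 8.34 ppm in DMSO and 26.4, 26.1 and 22 ppm in Torin1, a fold of 1.52 ± 0.10 (limma, adjusted p = 9.8e-06). Fosb went from 0.196, 0.132 and 0.208 ppm to 2.10, 2.14 and 1.04 ppm, a larger fold (2.88 ± 0.50) from a very low level. Npas4 (2.16 ± 0.20) and Egr2 (1.78 ± 0.19), both activity-regulated factors, also had more than 1.7 on this scale. Nr4a2, an orphan nuclear receptor gene, went from 5.78, 6.28 and 5.35 ppm to 15.0, 15.7 and 13.2 ppm (1.33 ± 0.10, adjusted p = 1.7e-05). Of these only Jund, another AP-1 member, fell and kept its call with every library left out, from 253, 248 and 281 ppm to 195, 157 and 144 ppm (-0.66 ± 0.13, adjusted p = 0.0057), lost with scaling to the column total alone (adjusted p = 0.064).

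The remaining large rises came from receptors, secreted proteins and regulators. Of 45 secreted, adhesion and receptor genes 28 rose and 0 fell, with a median log2 fold of 0.56. The list was drawn up with earlier results of these libraries known, and 5 members had been named for them. Without these 5, 23 of 40 rose, with a median of 0.50. The 40 were also chosen with those results known, so both counts are descriptions of the list only. Sstr1, a somatostatin receptor gene, went from 6.5, 5.63 and 4.77 ppm to 15.6, 14.6 and 16.3 ppm (1.46 ± 0.12, limma, adjusted p = 3.0e-05). Flrt3, an adhesion and guidance receptor gene, went from 8.91, 8.37 and 8.16 ppm to 17.8, 22.5 and 25.9 ppm (1.36 ± 0.12, adjusted p = 3.5e-05). In each of these the lowest Torin1 library lay well above the highest DMSO library.

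Others of the 12 largest rises were Tcim (1.23 ± 0.14) and the transcription regulator genes Zfp608 (1.23 ± 0.09) and Prdm8 (1.23 ± 0.11). The prokineticin receptor gene Prokr2 had 1.23 ± 0.09, Rasgef1b, a Ras-family exchange factor gene, 1.2 ± 0.08, the protease gene Prss23 1.19 ± 0.18, and F3, the gene of tissue factor, 1.17 ± 0.10. Each had an adjusted p (limma) of 0.0013 or less. Prss23 stood at 6.76, 5.65 and 5.45 ppm in DMSO and 12.2, 14.1 and 14.7 ppm in Torin1. Its fold in total mRNA was 0.31 (adjusted p = 0.36), with a difference of 0.89 that was not called (adjusted p = 0.31).

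**Figure D4:**
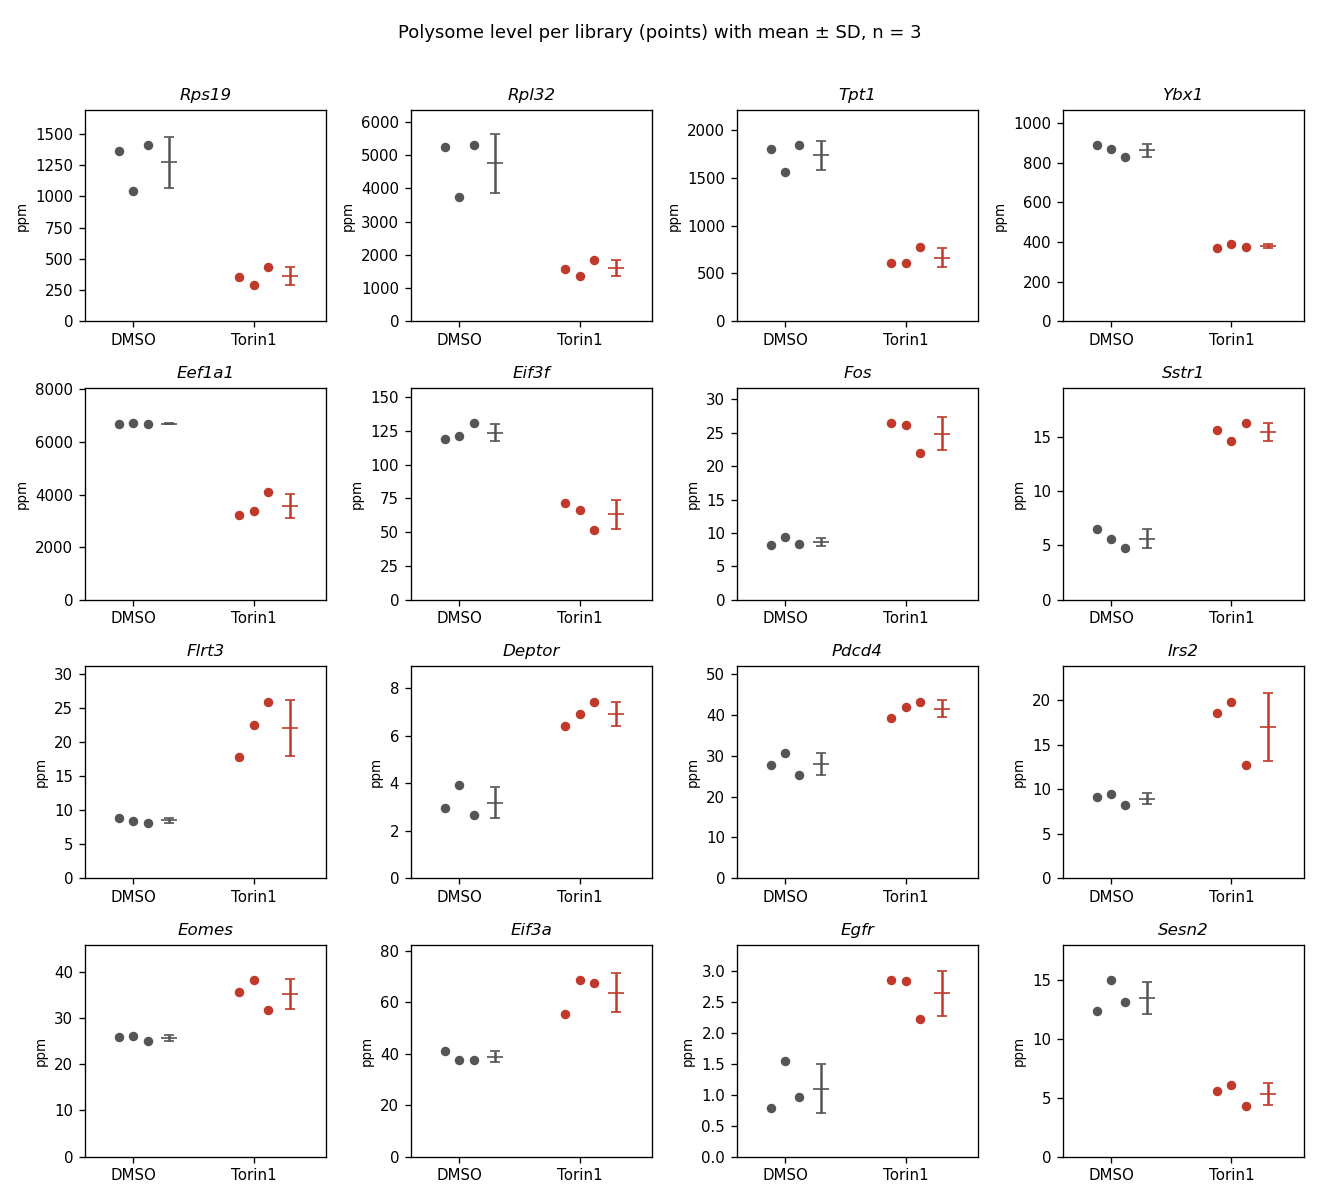
Level in ppm (vertical axes, each from 0) in the 3 DMSO and 3 Torin1 polysome libraries for 16 genes, as points with mean ± SD beside them. The first 6 genes are TOP mRNAs with lower values in every Torin1 library, the last (Sesn2) is lower too, and the 9 others are higher in every Torin1 library.

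Among 52 genes of G1/S and replication 15 fell and 1 rose, with a median log2 fold of -0.19. Under scaling to the column total alone 0 fell and 6 rose. The falls numbered 9 without DMSO replicate 1, 8 without Torin1 replicate 2 and 23 without Torin1 replicate 3. The E cyclins, which start S phase, were at 17.7, 16.1 and 17.7 ppm for Ccne1 and 13.9, 13.6 and 9.84 ppm for Ccne2 in DMSO. In Torin1 they were at 10.6, 10.3 and 7.90 ppm and at 7.16, 7.04 and 8.30 ppm. Ccne1 had -0.84 ± 0.18 (limma, adjusted p = 0.011) and Ccne2 -0.71 ± 0.15 (adjusted p = 0.0089), with 0.061 and 0.058 under scaling to the column total alone. E2f2, a transcription factor of S phase genes, had -0.79 ± 0.15 (adjusted p = 0.0072, and 0.063 with that scaling). Of 48 G2/M and mitosis genes 3 rose and 0 fell (19 and 0 with that scaling), a share near that of all genes. Without Torin1 replicate 1, 15 rose and 3 fell, and without Torin1 replicate 3, 5 rose. Cenpe, a kinetochore motor gene, had 1.12 ± 0.18 (adjusted p = 0.0019) and Top2a, the topoisomerase of dividing cells, 0.74 ± 0.12 (adjusted p = 0.0022), while in total mRNA their folds were 0.57 and 0.08, neither called. Of 29 replication-dependent histone genes 1 rose.

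ATF4 drives genes for amino acid uptake and synthesis. In a list of 43 such genes, with those of one-carbon metabolism, 6 fell and 4 rose. Mthfd2, a mitochondrial one-carbon enzyme gene, went from 55.8, 54.1 and 57.7 ppm to 30.0, 27.7 and 27.3 ppm, with -0.98 ± 0.07 (limma, adjusted p = 1.4e-05). Chac1, which degrades glutathione, had -0.82 ± 0.14 (adjusted p = 0.0037). Of 37 cholesterol and fatty acid synthesis genes 2 fell and 1 rose. Sqle, a sterol enzyme gene, had -0.29 ± 0.06 (adjusted p = 0.0087) and was not called with scaling to the column total alone (adjusted p = 0.82). Of 28 glycolysis and HIF1 target genes none was called in limma (7 rose with scaling to the column total alone), with Gapdh at -0.21 ± 0.08 (adjusted p = 0.15).

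Nuclear genes encode most mitochondrial proteins, and for these the counts turned with the scaling. Of 76 oxidative phosphorylation genes 12 fell and 1 rose (median log2 fold -0.24), and under column total scaling 1 fell and 10 rose. Among 78 genes of the mitochondrial ribosome 17 fell and 0 rose (median -0.20), and with that scaling 0 fell and 3 rose. Falls in these lists numbered 4 and 5 without DMSO replicate 1, DMSO replicate 3 or Torin1 replicate 2. They numbered 19 and 19 without DMSO replicate 2 and 40 and 37 without Torin1 replicate 3. Only 3 and 4 of the falls held with every library left out. Cox7a2l, a factor of respiratory supercomplex assembly, stood out at 180, 160 and 193 ppm in DMSO and 89.1, 72.4 and 95.3 ppm in Torin1, a fold of -1.06 ± 0.10 (limma, adjusted p = 5.8e-05). Its total mRNA fold was 0.18, and the difference of -1.24 was called (adjusted p = 0.0010). Mrps26 had -0.54 ± 0.10 and Mrps34 -0.53 ± 0.10, both small subunit members of the mitochondrial ribosome, neither called with scaling to the column total alone (adjusted p = 0.079 and 0.097). Sdha, a subunit of complex II, rose with 0.45 ± 0.08 (adjusted p = 0.0038). Of 15 mitochondrially encoded RNAs 1 was called, mt-Nd3, a complex I subunit, at 106, 18.8 and 64.3 ppm in DMSO and 24.2 ppm in Torin1 replicate 1, and listed at 0 in the other 2 (adjusted p = 0.028). The groups overlapped, and the adjusted p was 0.096 without DMSO replicate 1, 0.088 without DMSO replicate 3, 0.11 without Torin1 replicate 2 and 0.078 without Torin1 replicate 3.

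Chaperones help new proteins to fold. Of 25 CCT chaperonin and cytosolic chaperone genes 6 fell and 1 rose (1 and 9 under column total scaling). Pfdn5, a prefoldin subunit, went from 765, 601 and 787 ppm to 383, 351 and 492 ppm, with a log2 fold of -0.82 ± 0.13 (adjusted p = 0.0019, limma). Hspa8, the constitutive HSP70, had -0.52 ± 0.09 (adjusted p = 0.0032, and 0.056 with that scaling). Of 32 proteasome genes 2 fell and of 30 secretory and ER genes 1 fell and 1 rose, and without Torin1 replicate 3 the falls were 15 and 6. Psmd7, a proteasome lid subunit, had -0.30 ± 0.06 and Ssr4, a subunit of the translocon-associated complex, -0.39 ± 0.08, neither called with that scaling (adjusted p = 0.73 and 0.22).

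Lysosome and autophagy genes, many of them TFEB targets, changed in few members. Among 59 genes of the lysosome and its proton pump 6 rose and 0 fell (22 and 0 under column total scaling), with a median log2 fold of 0.15. All but 1 of those calls were lost when a library was left out. The lysosomal membrane protein gene Lamp1 had -0.01 ± 0.07 (limma, adjusted p = 0.95). Of 39 autophagy genes 4 rose and 2 fell. Atg14, a subunit of the kinase complex that starts autophagosomes, went from 9.14, 8.05 and 8.13 ppm to 15.2, 18.8 and 22.5 ppm, with 1.13 ± 0.15 (adjusted p = 0.00055). In total mRNA it had 0.37 (adjusted p = 0.16), with a difference of 0.76 that was not called (adjusted p = 0.26). The autophagy receptor genes Nbr1 (0.56 ± 0.08, adjusted p = 0.0011) and Calcoco1 (0.53 ± 0.10, adjusted p = 0.0048) rose as well.

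Of 41 splicing factor genes 9 fell and 0 rose, and under column total scaling 1 fell and 8 rose. The falls numbered 5 without DMSO replicate 1, 3 without DMSO replicate 3 and 15 without Torin1 replicate 3. Srsf7, an SR protein gene, went from 257, 228 and 245 ppm to 144, 140 and 198 ppm, with a log2 fold of -0.61 ± 0.11 (adjusted p = 0.0041, limma). Of 41 chromatin regulator genes 2 rose and 2 fell, and of 19 long noncoding RNAs 1 rose. None of these 5 calls held with every library left out.

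Genes of progenitor and neuronal identity were more often higher than lower. Of 31 radial glia genes 14 rose and 0 fell (median log2 fold 0.26), of 15 genes of intermediate progenitors 10 rose and 1 fell (0.39), and of 37 neuron genes 10 rose and 1 fell (0.16). Medians in total mRNA were 0.22, 0.42 and 0.18. The radial glia rises numbered 8 without DMSO replicate 1, 7 without DMSO replicate 3 and 8 without Torin1 replicate 2, and 7 held with every library left out. The intermediate progenitor rises numbered 6 without any 1 of these libraries. Hopx, a homeodomain gene of radial glia, went from 99.3, 93.7 and 96.6 ppm to 169, 137 and 167 ppm, with 0.70 ± 0.09 (limma, adjusted p = 0.00039). Pax6 had 0.23 ± 0.12 (adjusted p = 0.28), and Sox2 had 0.25 ± 0.06 (adjusted p = 0.022). The Sox2 call was lost without DMSO replicate 1 (adjusted p = 0.090), DMSO replicate 3 (0.090) or Torin1 replicate 2 (0.061).

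Several proneural factors, which start the step from progenitor to neuron, rose. Neurod1 went from 20.7, 23.3 and 22.1 ppm to 39.5, 43.4 and 40.8 ppm, with a log2 fold of 0.90 ± 0.07 (adjusted p = 1.4e-05, limma). Neurog2 had 0.67 ± 0.10, the antiproliferative gene Btg2 0.63 ± 0.06 and Eomes, the marker of intermediate progenitors, 0.45 ± 0.08 (35.8, 38.3 and 31.7 ppm in Torin1, adjusted p = 0.0028). Among neuron genes Mef2c had 1.05 ± 0.08, Bhlhe22 1.00 ± 0.06 and Pou3f2 0.66 ± 0.09, all transcription factors. Scrt1, a neuronal repressor, had -0.55 ± 0.09 (adjusted p = 0.0023, and 0.10 under column total scaling). Tubb3, the neuronal tubulin, had -0.12 ± 0.09 (adjusted p = 0.44). Among 17 genes of interneurons and the ventral forebrain 7 rose and 0 fell (4 rose without DMSO replicate 1), among them Sp8 (1.15 ± 0.11), Gsx2 (1.11 ± 0.17) and Ebf1 (0.79 ± 0.15), all transcription factors.

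Markers of other cells were present, and some moved with the treatment. Their summed levels are compared between treatments and not between cell types. The 25 genes of endothelial, mural and meningeal cells summed to 68.9 to 77.2 ppm in DMSO and 92.7 to 117 ppm in Torin1, and 4 rose, among them the collagen genes Col1a1 (1.04 ± 0.14, limma, adjusted p = 0.00069) and Col1a2 (1.07 ± 0.15, adjusted p = 0.0011). The 15 microglia and macrophage genes summed to 33.7 to 46.0 ppm and 35.7 to 47.1 ppm, with 0 called. The 10 erythroid genes summed to 1928 to 2413 ppm and 2092 to 3179 ppm, with 1 called. The 11 oligodendrocyte and astrocyte genes summed to 156 to 162 ppm and 168 to 213 ppm, with 1 called, Aldh1l1 (0.61 ± 0.12). The part of these cells in the other rises was not tested.

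Of 40 Notch, WNT and Hedgehog genes 11 rose and 2 fell. The WNT receptor gene Fzd1 went from 25.6, 29.0 and 27.5 ppm to 52.4, 56.1 and 41.7 ppm, with a log2 fold of 0.86 ± 0.10 (adjusted p = 0.00025, limma). The Hedgehog co-receptor gene Boc had 0.75 ± 0.10 (adjusted p = 0.00077). Of 25 p53 targets and BCL2 family genes 3 rose and 4 fell. The death-promoting BH3-only genes Pmaip1 (1.19 ± 0.21, adjusted p = 0.0034) and Bcl2l11 (0.90 ± 0.11, adjusted p = 0.00037) rose. Phlda3, a p53 target that restrains AKT, went from 14.5, 16.1 and 17.2 ppm to 7.37, 7.83 and 6.23 ppm (-1.16 ± 0.11, adjusted p = 8.3e-05).

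Total mRNA of the same cultures shows how far the polysome response differs from a change in mRNA amount. The interaction of fraction and treatment was called for 147 genes, 143 of them lower and 4 higher in polysome than in total mRNA. With culture as a block 91 genes were called. Of the 1103 falls in polysome mRNA 140 had such a call, and of the 925 rises 1 had. The difference carries the error of both folds. A gene without such a call is therefore not shown to have equal folds in polysome and total mRNA. The 147 held 67 ribosomal protein genes, and 52 carried predicted, Rik or pseudogene names. Outside the ribosomal proteins the calls in the lists fell in the other TOP list (10 of 31), with elongation factors, eIF3 subunits and 1 snoRNA host in part the same genes, and in oxidative phosphorylation (2 of 76). The other lists held none. Without total Torin1 replicate 2, a library that stood apart in histone genes (Hist1h4a at 32.1 ppm, against 0.284 to 3.91 ppm in the other total libraries), 113 genes were called and 55 of the ribosomal protein genes. Without polysome Torin1 replicate 3, 225 genes were called.

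**Figure D5:**
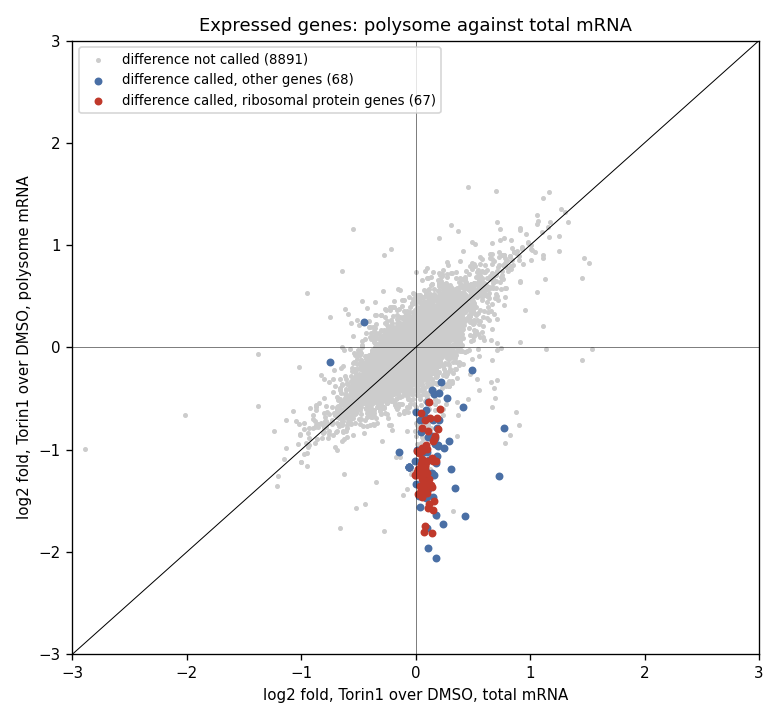
Log2 fold of Torin1 over DMSO in polysome mRNA (vertical axis) against that in total mRNA (horizontal axis) for expressed genes, with 3 genes beyond the axes and the line of equal folds. The 135 expressed genes whose folds differ (67 of them ribosomal protein genes, in red) lie mostly below the line, with total folds near 0.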

How the data were processed

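The authors deposited a table of 53351 genes and 12 columns holding a signal that is never below 0. In every column the values are whole multiples of a fixed share of the column total (within 0.011), so the deposited signal is not reads and its depth is unknown. Mouse build mm10, HTSeq 0.6.0 and STAR 2.7.9a are listed, per the submitters' processing notes. The scaling by the authors was not given in the sources used here. Other sample columns numbered 0.

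Samples were grouped by title. Each column was scaled by its total times a trimmed mean of log ratios without weights (trims of 0.3 and 0.05). The resulting factors in polysome libraries were 0.815 to 0.907 for DMSO and 0.926 to 1.07 for Torin1. Genes with a deposited signal of at least 1 in 3 libraries were tested on log2(value + 1), which understates folds of low genes, with limma 3.58.1 (R 4.3.3) over 12 libraries and 4 group means, with a trend in variance and 8 residual degrees of freedom. P-values were adjusted by Benjamini-Hochberg over 20240 genes, at 0.05. On simulated data of 20240 genes for the polysome comparison, 68 of 100 expressed genes changed 1.5-fold and 89 of 100 changed 2-fold were recovered, and 4 unchanged genes were called. Its noise was independent between genes and of equal spread in all groups. Deviations shared by the genes of a library were not simulated, so these counts may not hold for the real libraries.

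Gene lists, members and the naming rule were chosen with earlier results of these data known. The rule takes the 12 largest rises and falls among expressed called genes whose groups do not overlap (without predicted, Rik, pseudogene or accession names), the 3 largest called members of each of 44 lists, and a set of mTOR, identity and reference genes. The first 2 steps took 126 genes, 124 of them called, and 40 whose call was lost when a polysome library was left out are mostly given by count. Start sequences are RefSeq's (GRCm38.p6), matched by symbol for 13025 of the genes tested. Protein lengths were planned and not used here. Alternatives were other scalings, filters, pseudocount, blocks, fits and left-out libraries. The fit without total Torin1 replicate 2 was added after seeing the data.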

Additional observations from a re-analysis of the deposited data

Results flagged for a closer look

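The effect of Torin1 differed between polysome and total mRNA, by the interaction term in limma with Benjamini-Hochberg adjustment over all genes, for 147 genes. Genes described above with such a call are given by the polysome minus the total log2 fold. Among small subunit ribosomal protein genes the difference was -1.96 for Rps19, -1.88 for Rps27, -1.83 for Rps12, -1.74 for Rps7 and -1.66 for Rps20. It was -1.46 for Rps18, -1.45 for Rps15a, -1.39 for Rps21 and -1.22 for Rps6. Among large subunit genes it was -1.68 for Rpl32, -1.65 for Rpl17, -1.52 for Rpl23a and -1.24 for Rplp2, and smaller for Rpl4 (-0.815) and Rpl7a (-0.656). The paralogs Rps27rt (-1.97), Rpl22l1 (-1.62) and Rpl37rt (-1.56) lay in the same range. Other TOP mRNAs and elongation factors followed, with Ybx1 at -1.5, Tpt1 at -1.49, Eef1b2 at -1.22, Eef1a1 at -1.2, Rack1 at -1.14, Pabpc1 at -0.998 and Eef1g at -0.869. Of the eIF3 subunits Eif3f had -1.23, Eif3h -0.649 and Eif3k -0.642. Cox7a2l had -1.24. Ccni (-0.763) and Nme2 (-0.747), which are not described above, had such a call too. Their polysome log2 folds were -0.49 and -0.71. That of Ccni was not called with scaling to the column total alone (limma, adjusted p = 0.067).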

How the results depend on the processing

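Of all 2028 called genes, 974 kept their call with each polysome library left out. Of 114 named genes with a call 110 did, but keeping it was a condition for naming the rule-chosen genes. Of the 114, 66 kept it in a fit of the 6 polysome libraries alone, and 17 lost it with scaling to the column total alone. That scaling called 3240 genes (2911 rises, 329 falls), and the fit of 6 libraries 404 (184 rises, 220 falls). Leaving out 1 polysome library gave 1185 (without DMSO replicate 3) to 2715 (without Torin1 replicate 3) calls, 541 to 1150 rises and 644 to 1565 falls, and 111 to 225 interaction calls. Same-numbered DMSO and Torin1 polysome libraries deviated together with r of -0.258, 0.387 and 0.0624, so the numbers were not taken to pair them. With a replicate block 1 gene was called in the 6 polysome libraries (1 rise, 0 falls) and 1511 in all 12, and with culture as a block the interaction was called for 91. The median fold of genes with a pyrimidine run minus those without was -0.027 with the run at the start and 0.00052 within 5 bases of it. Folds that changed sign belonged to genes without a call. With scaling to the column total alone they were 0.12 for Tubb3, 0.21 for Eef2, 0.21 for Eif2s3x, 0.21 for Rptor, 0.039 for Gapdh and 0.23 for Lamp1, and with the upper quartile 0.0014 for Eef2 and 0.022 for Lamp1. With 1 library left out Cct2 ranged from -0.00468 to 0.067, Eef2 from -0.13 to 0.044, Eif2s3x from -0.16 to 0.084, Rps6kb1 from -0.12 to 0.14, Rptor from -0.14 to 0.11 and Lamp1 from -0.0368 to 0.0063. The causes were not tested. Depth in reads is unknown, so no limit from it is given.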

Other observations

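The genes here were chosen after their values were seen. Snrnp200, a helicase of the spliceosome, went from 15.3, 16.9 and 15.4 ppm in DMSO to 26.4, 33.4 and 25.7 ppm in Torin1, a log2 fold of 0.84 ± 0.09 (SE, limma, adjusted p = 0.00019) against 0.27 in total mRNA. Lrpprc, which stabilises mitochondrial mRNA, had 0.80 in polysome and 0.28 in total mRNA. Smc1a, a cohesin subunit, had 0.75 and 0.24, and Copa, a coatomer subunit, 0.72 and 0.31. Ddb1, an adaptor of a ubiquitin ligase, had 0.72 and 0.21, the nuclear pore gene Tpr 0.68 and 0.10, and the microtubule polymerase gene Ckap5 0.68 and 0.27. The difference between the folds was called for none of these 7 genes (limma, adjusted p from 0.081 to 0.41).

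Falls outside the lists included Orai1, a calcium channel gene, at 12.4, 13.6 and 14.2 ppm in DMSO and 7.1, 5.17 and 4.68 ppm in Torin1 (-1.26 ± 0.15, limma, adjusted p = 0.00036; -1.21 in total mRNA). Pgp, a phosphatase gene, had -1.09 in polysome and -1.15 in total mRNA. The ubiquitin-conjugating enzyme gene Ube2j2 had -1.07 and -0.17, and its difference of -0.90 was not called (adjusted p = 0.45).

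Gm8325 was at 3.91, 2.02 and 2.54 ppm in the DMSO polysome libraries and at 1204, 888 and 1276 ppm in the Torin1 polysome libraries. In total mRNA it was at 1.70, 2289 and 992 ppm in DMSO and 1.30, 2952 and 1.27 ppm in Torin1. Its log2 fold in polysome mRNA was 8.64 (limma, adjusted p = 0.083), with an adjusted p of 0.0024 in the fit of the 6 polysome libraries alone and 0.023 without total Torin1 replicate 2.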
